A study of Mus musculus with 4 samples.

Results

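Genes that mark the endothelium and the endocardium, the inner lining of the heart tube, were examined in hearts of Salvador mutant mouse embryos. The set holds 33 genes chosen by name for their role in these cells, with earlier results of these data known. Counts set beside all genes therefore describe the set and do not test it. Of the 33 genes, 30 had a probe under the symbol listed among the 16675 genes measured, and Emcn, Esam and Ecscr did not. Whole hearts were taken at embryonic day 9.5 from mice of a C57bl/6 x129 hybrid strain, and RNA was pooled into 2 control samples, labelled wild-type, and 2 samples labelled Salv CKO. In the latter Salvador (Sav1), a scaffold protein of the Hippo kinase cascade, had been deleted conditionally; the labels name neither the Cre driver nor the cells it acts in, nor how many hearts a pool held. Each pool was hybridised as Cy5-labelled amplified RNA to 1 one-colour array, so that every group has n = 2, and the comparison asks what the Hippo pathway regulates at the level of RNA in the forming heart.

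Endothelial cells receive growth signals through VEGF receptors, which bind the secreted VEGF ligands, and through the Tie receptors, whose ligands are the angiopoietins. Transcription factors of the Ets and SoxF families and Tal1 with its partner Lmo2 drive the endothelial program, and Nfatc1 marks the endocardium, from which the valve cushions arise. Surface proteins such as Pecam1 and endoglin, and products such as von Willebrand factor and the endothelial nitric oxide synthase, are made once the program runs.

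The array medians of the deposited values were 77.5 and 101 intensity units in control pools 1 and 2 and, in Salv CKO pools 1 and 2, 71.1 and 76.1. After quantile normalisation between 73.2 and 74.0% of probes on each array lay above the background limit of 16 intensity units (log2 4). That step gives the arrays nearly the same distribution, so the shares do not compare detection between arrays. Sav1 itself was at log2 9.56 and 9.30 in control pools 1 and 2 and at 9.19 and 9.13 in Salv CKO pools 1 and 2 (difference -0.27 ± 0.13, adjusted p = 0.266). Whether its probe lies within the deleted exons is unknown here, so the value does not check the labels. The defining endothelial markers Pecam1, Cdh5, Tie1 and Kdr were above background on all 4 arrays. Levels below are log2 intensities after quantile normalisation. Differences are Salv CKO minus control on that scale, with the standard error of limma, a linear model that shares the spread between genes, and its Benjamini-Hochberg adjusted p over all 16675 genes, called at 0.05.

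Of the 30 genes, 10 fell in Salv CKO and 1 rose. Over all genes tested 5.70% were called lower and 4.92% higher (7.58% and 6.45% of the 12402 genes above background on all 4 arrays, as 28 of the 30 were). The falls were of Eng, Vwf, Plvap, Nos3, Pecam1, Icam2, Ramp2, Tie1, Mmrn2 and Vegfb, between 1.42-fold and 2.12-fold, and the rise was of Vegfc, by 1.27-fold. The median difference over the 30 genes was -0.44, against -0.04 over all genes. The 2 Salv CKO values were below the 2 control values for 17 of the 30 and above them for 4, where 29.0% and 25.2% of all genes did so, and for 9 the groups overlapped. In normalised RNA of whole hearts, a smaller share of RNA from endothelial cells and less of a given RNA in each such cell cannot be told apart. Some of the 30 RNAs, such as Vegfb and Vwf, are made by other cells as well, and the part of those cells was not tested.

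These calls rest on limma's estimate of the spread from 2 pools a group. With any 1 array left out limma called 0 of the 30 genes (11 to 12 lower and 1 to 2 higher at an unadjusted p under 0.05; with all arrays 14 and 2 did so, and 26.7% of all genes in either direction). It also called 0 with no intensity trend in the spread (12 lower and 1 higher unadjusted), and 3 of the 10, Eng, Pecam1 and Nos3, with dim values raised to 16 or to a higher floor. Each of the 10 genes that fell kept a negative difference in every alternative run.

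**Figure D1:**
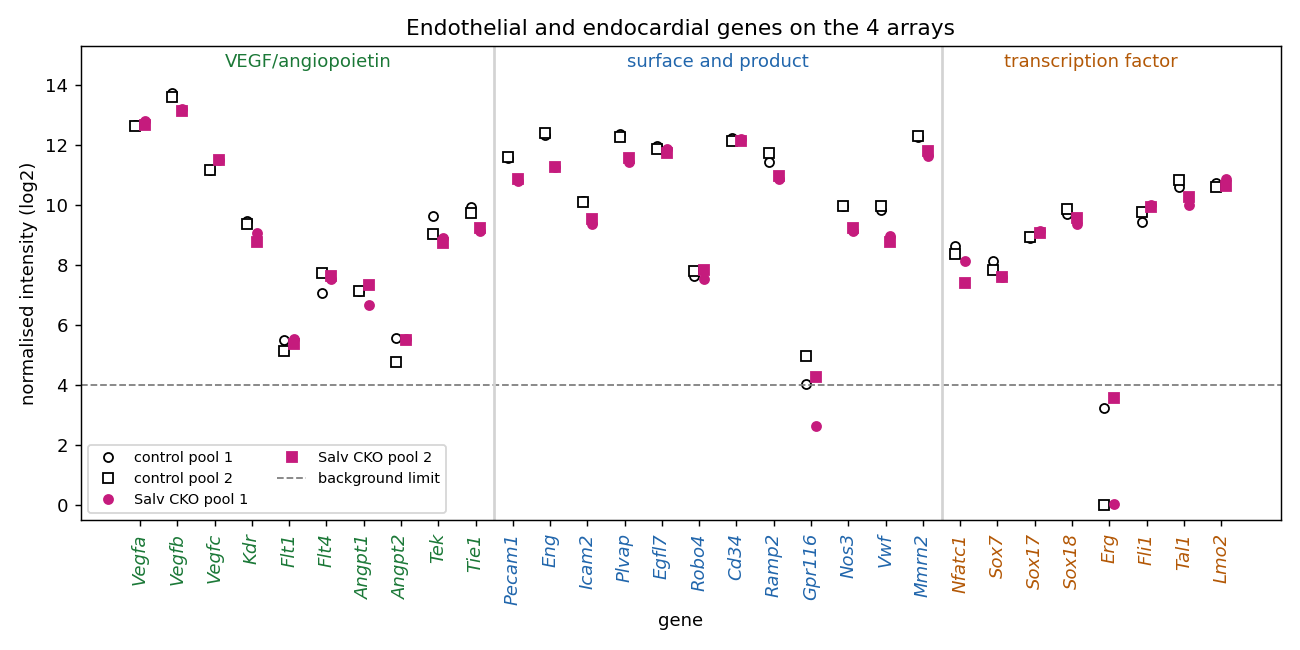
Log2 normalised intensity of the 30 genes (1 probe each) in the 2 control pools (open) and the 2 Salv CKO pools (filled), by role; the dashed line is the background limit at log2 4. Eng, Vwf and Plvap stand apart between the groups, Cd34 and Egfl7 lie close together, and Erg lies below the limit on all 4 arrays.

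Among the VEGF ligands 1 fell, 1 rose and 1 did not pass the test. Vegfb, a ligand of Flt1 that is abundant in heart muscle, was at 13.74 and 13.59 in control pools 1 and 2 and at 13.18 and 13.14 in Salv CKO pools 1 and 2. Both Salv CKO pools were lower, by 0.50 ± 0.08 on average (adjusted p = 0.0236). Vegfc, the ligand of Flt4 and a factor of lymphatic growth, was at 11.16 and 11.18 in the controls and at 11.51 and 11.51 in Salv CKO. The pools of each group were nearly equal and did not overlap with the other group, and the rise was 0.34 ± 0.07 (adjusted p = 0.0447). This call was lost with the arrays centred on their medians (0.10, adjusted p = 0.670), scaled to their 75th percentiles (0.24, adjusted p = 0.112) or with the mean over the probes of every gene (0.34, adjusted p = 0.0527). With the values as deposited the sign turned (-0.17, adjusted p = 0.418), where the median of genes above background was -0.44.

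Vegfa, the main ligand of Kdr, was at 12.68 and 12.64 in the controls and at 12.79 and 12.68 in Salv CKO. Although the groups just did not overlap, the difference of 0.08 ± 0.07 did not pass (adjusted p = 0.552). Its 95% interval, unadjusted, ran from -0.11 to 0.27, and its sign turned under each of the 3 other scalings. The ratio of Vegfb to Vegfa within an array, which does not depend on the scale of that array before normalisation, was at log2 1.06 and 0.96 in the controls and 0.39 and 0.45 in Salv CKO. It was thus lower in both Salv CKO pools, by 0.58, and by 0.56 in the values as deposited. The ratio of Vegfc to Vegfb moved the other way, from -2.57 and -2.42 to -1.67 and -1.63, a difference of 0.85 (0.83 as deposited). A two-sided exact permutation test gave p = 0.333 for both, the smallest that 2 against 2 pools allow (0.416 adjusted over the 5 ratios examined, which were picked after their values were seen).

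The VEGF receptors gave no call. Kdr (VEGFR2), through which Vegfa drives endothelial growth, was at 9.48 and 9.37 in control pools 1 and 2 and at 9.06 and 8.77 in Salv CKO pools 1 and 2. The Salv CKO pools were both lower, but the difference of -0.51 ± 0.14 missed the threshold (adjusted p = 0.0909). It passed with median centring (-0.68, adjusted p = 0.0314), with the values as deposited (-0.95, adjusted p = 0.0126) and with the replicate number as a block (adjusted p = 0.0498). Flt1 (VEGFR1), which also acts as a decoy for Vegfa, was near background, at 5.52 and 5.13 in the controls and 5.53 and 5.37 in Salv CKO. Its groups overlapped and its 95% interval ran from -0.79 to 1.03, which is wide at this signal. Flt4 (VEGFR3), at 7.06 and 7.72 in the controls and 7.53 and 7.65 in Salv CKO, overlapped as well (0.20 ± 0.27, adjusted p = 0.702).

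In the angiopoietin branch 1 of 4 genes fell. Tie1, an orphan receptor that modulates Tek, was at 9.95 and 9.72 in control pools 1 and 2 and at 9.15 and 9.22 in Salv CKO pools 1 and 2. The groups were apart and the difference was -0.65 ± 0.12 (adjusted p = 0.0364). Tek (Tie2), the angiopoietin receptor, was at 9.63 and 9.04 in the controls and at 8.92 and 8.75 in Salv CKO. Here the control pools differed by more than control pool 2 did from either Salv CKO pool, and the difference of -0.50 ± 0.22 did not pass (adjusted p = 0.232). It passed with the values as deposited (-0.93, adjusted p = 0.0174), and with 1 array left out it ranged from -0.80 to -0.21. The ratio of Tie1 to Tek within an array overlapped between the groups, with 0.32 and 0.68 in the controls and 0.23 and 0.47 in Salv CKO (exact permutation p = 0.667, also when adjusted over the 5 ratios, where no value below 0.333 is possible). Tie1 passed the test and Tek did not, but whether they differ in response cannot be settled with 2 pools a group.

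The ligand Angpt1, an agonist of Tek made by heart muscle and mesenchyme, was at 7.14 and 7.13 in the controls and at 6.69 and 7.34 in Salv CKO. The Salv CKO pools lay on either side of the controls (-0.12 ± 0.28, adjusted p = 0.826). Angpt2, a ligand that can block Tek, was near background at 5.57 and 4.77 in the controls and at 5.53 and 5.51 in Salv CKO, with groups that overlapped (0.35 ± 0.42, adjusted p = 0.656). Over the 10 signalling genes the median difference was -0.02, close to that of all genes.

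**Figure D2:**
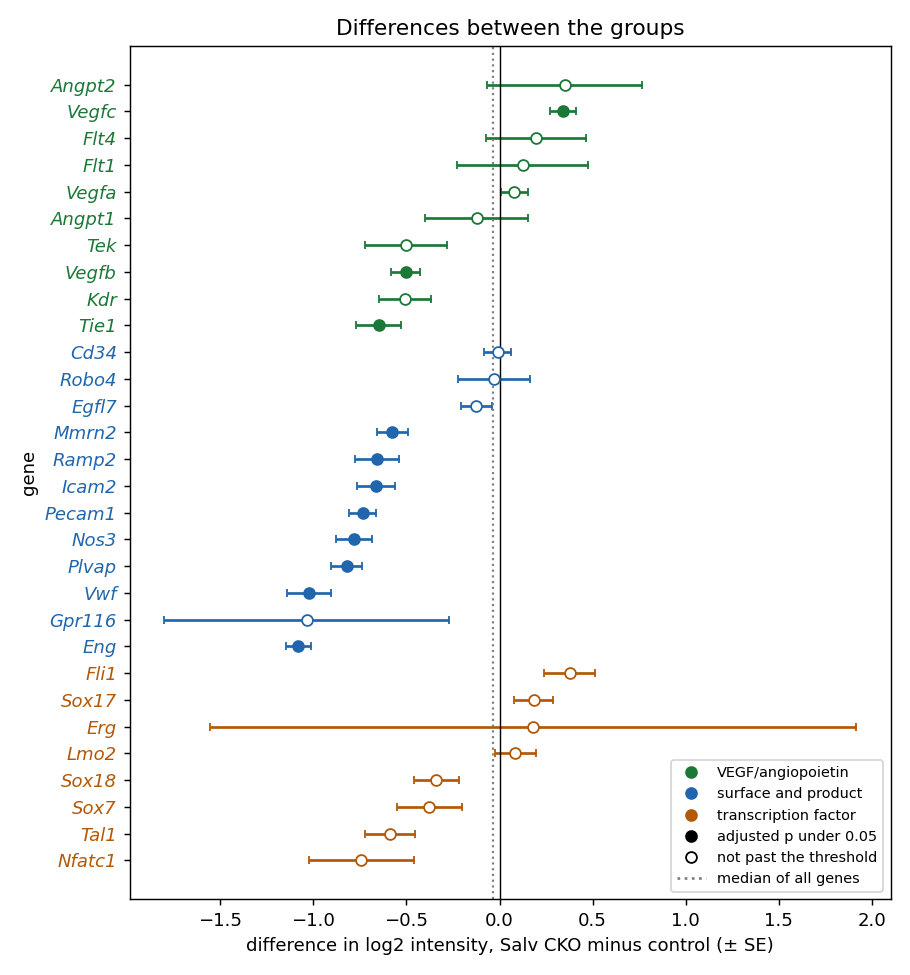
Difference in log2 intensity, Salv CKO minus control, with limma's standard error, for the 30 genes ordered within each role; filled points passed an adjusted p of 0.05 and the dotted line is the median of all genes (-0.04). In the surface and product group 8 of 12 points are filled, all below 0, and in the transcription factor group none is.

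Of the 12 surface proteins and endothelial products measured, 8 fell, 0 rose and 4 did not pass, and the median difference was -0.70. Eng (endoglin), a TGF-beta coreceptor, was at 12.32 and 12.39 in control pools 1 and 2 and at 11.27 and 11.27 in Salv CKO pools 1 and 2. The pools of a group were close and the groups far apart, with a 2.12-fold lower level in Salv CKO (-1.08 ± 0.07, adjusted p = 0.00661). Vwf, the von Willebrand factor stored by endothelial cells and platelets, was at 9.84 and 9.96 against 8.98 and 8.77. Both Salv CKO pools were lower, with a difference of -1.02 ± 0.12 (adjusted p = 0.0143).

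Plvap, a protein of the diaphragms of endothelial openings, was at 12.36 and 12.28 in the controls and at 11.43 and 11.57 in Salv CKO (-0.82 ± 0.08, adjusted p = 0.0115). Nos3, the endothelial nitric oxide synthase, was at 9.98 and 9.97 in the controls and at 9.13 and 9.25 in Salv CKO (-0.78 ± 0.10, adjusted p = 0.0158). Pecam1 (CD31), an adhesion protein of endothelial junctions, was at 11.57 and 11.59 in the controls and at 10.81 and 10.88 in Salv CKO (-0.74 ± 0.07, adjusted p = 0.0111). In each of the 3 genes the control pools differed from each other by less than 0.1 and both Salv CKO pools were lower.

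Icam2, an adhesion molecule that binds leukocytes, was at 10.15 and 10.12 in the controls and at 9.39 and 9.55 in Salv CKO (-0.66 ± 0.10, adjusted p = 0.0239). Ramp2, the partner of the adrenomedullin receptor, was at 11.45 and 11.73 in the controls and at 10.88 and 10.98 in Salv CKO (-0.66 ± 0.12, adjusted p = 0.0334). Mmrn2 (multimerin 2), a matrix protein laid down by endothelium, was at 12.26 and 12.31 in the controls and at 11.63 and 11.79 in Salv CKO (-0.58 ± 0.08, adjusted p = 0.0210). The groups of these 3 genes did not overlap either, with the control pools of Ramp2 the furthest apart.

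The other 4 surface and product genes did not pass. Cd34, a sialomucin of endothelium and blood progenitors, was at 12.22 and 12.13 in the controls and at 12.19 and 12.14 in Salv CKO. Its groups overlapped, and the 95% interval of the difference, unadjusted, ran from -0.20 to 0.18, so a fall as large as that of Mmrn2 or Eng lies outside it. Within an array the ratio of Eng to Cd34 was at log2 0.10 and 0.26 in the controls and at -0.91 and -0.87 in Salv CKO, lower by 1.07 under quantile normalisation and in the values as deposited (exact permutation p = 0.333, the smallest possible, and 0.416 adjusted over the 5 ratios). Egfl7, a secreted regulator of vessel tube formation, was at 11.97 and 11.87 against 11.85 and 11.74 (-0.12 ± 0.08, adjusted p = 0.416, 95% interval -0.34 to 0.09). With the values as deposited Cd34 and Egfl7 were called lower as well (-0.51, adjusted p = 0.0300, and -0.65, adjusted p = 0.0150), where the median of genes above background was -0.44. Robo4, a guidance receptor of endothelium, overlapped (-0.03 ± 0.19). The adhesion receptor Gpr116 was above background on 3 of the 4 arrays (-1.04 ± 0.77, adjusted p = 0.466).

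A second probe was at hand for several of these genes, fitted here over all probes. The second probe of Eng fell from 10.09 and 10.20 to 9.18 and 9.05 (-1.03 ± 0.10, adjusted p = 0.0161), that of Pecam1, at 7.95 and 7.90 in Salv CKO, fell below both controls (-1.07 ± 0.11, adjusted p = 0.0171), and that of Mmrn2 from 11.25 and 11.29 to 10.58 and 10.53 (-0.71 ± 0.07, adjusted p = 0.0163). For these 3 genes both probes were thus called in 1 direction. The second probe of Robo4 gave 0.63 ± 0.20 with no call (adjusted p = 0.152), against -0.03 on the brighter one, so that no direction can be given for Robo4. For Esam and Ecscr, under older symbols that the RefSeq gene table lists as synonyms, Esam (as Esam1), an endothelial adhesion molecule, gave -0.38 ± 0.10 with both Salv CKO pools below the controls but no call (adjusted p = 0.0942), and Ecscr (as 1110006O17Rik) was above background on 3 arrays (-1.47 ± 1.39). Both were looked up after the other values were seen and are not among the 30.

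**Figure D3:**
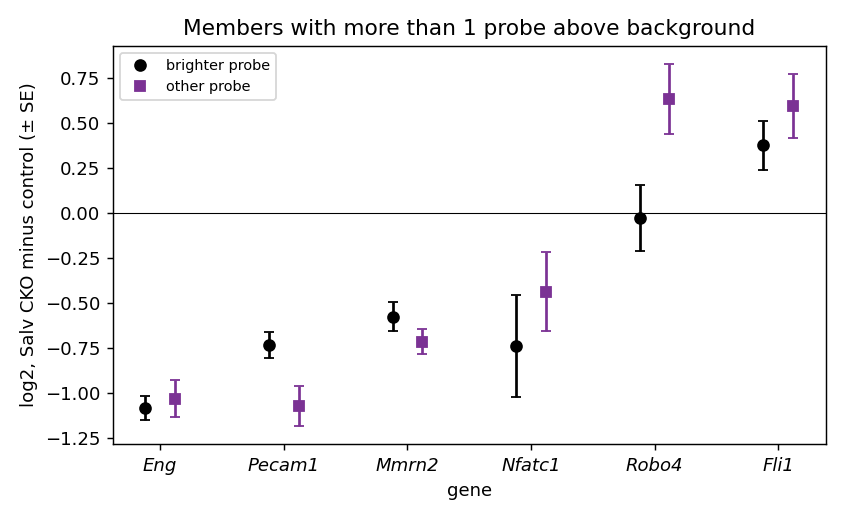
Difference in log2 intensity, Salv CKO minus control, with its standard error, for the brighter and the other probe of each gene with more than 1 probe above background on all arrays. Both probes of Eng, Pecam1 and Mmrn2 lie at -0.58 or below, whereas the probes of Robo4 lie at -0.03 and 0.63.

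The transcription factors gave no call: limma passed 0 of 8, with 4 at an unadjusted p under 0.05 (3 lower, 1 higher), and their median difference was -0.13. Over the 7 factors above background on all 4 arrays, thus without Erg, the median was -0.34, against -0.04 for all genes above background. Tal1, a bHLH factor of blood and endothelial progenitors, was at 10.61 and 10.84 in control pools 1 and 2 and at 10.01 and 10.27 in Salv CKO pools 1 and 2. Both Salv CKO pools were lower, and the difference of -0.59 ± 0.14 lay just outside the threshold (adjusted p = 0.0610). It passed with median centring (-0.81, adjusted p = 0.00540), 75th percentile scaling (-0.66, adjusted p = 0.0304), the values as deposited (-1.08, adjusted p = 0.0136), the genes above background alone (adjusted p = 0.0251) and the replicate number as a block (adjusted p = 0.0191). Lmo2, the adaptor that binds Tal1, was at 10.73 and 10.60 against 10.86 and 10.64, with groups that overlapped (0.08 ± 0.11, adjusted p = 0.688).

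Nfatc1, the endocardial factor, was at 8.63 and 8.38 in the controls and at 8.14 and 7.39 in Salv CKO. Both Salv CKO pools were lower but far apart, and the difference of -0.74 ± 0.28 did not pass (adjusted p = 0.182), except with the values as deposited (-1.13, adjusted p = 0.0288). With 1 array left out it ranged from -1.12 to -0.37. Its second probe gave -0.44 ± 0.22 and another probe was below background on all arrays. Of the SoxF factors, Sox7 gave -0.38 ± 0.17 (adjusted p = 0.254) and Sox18, a factor of vessel and lymphatic development, -0.34 ± 0.12 (adjusted p = 0.159), with both Salv CKO pools below both controls. Sox18 passed with median centring (-0.53, adjusted p = 0.0313) and with the values as deposited (-0.80, adjusted p = 0.0314). Sox17, which acts in endoderm and in arterial endothelium, was at 8.91 and 8.93 against 9.14 and 9.07, higher in both Salv CKO pools by 0.18 ± 0.10 with no call (adjusted p = 0.350). The ratio of Sox17 to Sox18 within an array was at log2 -0.80 and -0.95 in the controls and at -0.21 and -0.48 in Salv CKO, a difference of 0.52 (exact permutation p = 0.333, the smallest possible, and 0.416 adjusted over the 5 ratios).

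Of the Ets factors, Fli1 was at 9.44 and 9.77 in the controls and at 10.02 and 9.94 in Salv CKO. Both Salv CKO pools were higher (0.38 ± 0.14, adjusted p = 0.166), as they were on its second probe (0.59 ± 0.18, adjusted p = 0.146), but neither passed. With the values as deposited the signs of Fli1, Sox17 and Lmo2 turned negative, but relative to the median of genes above background they were at 0.34, 0.20 and 0.045. Erg was below the background limit on all 4 arrays and gives no level. Whether the 3 role groups differ from each other in their shift was not tested.

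**Figure D4:**
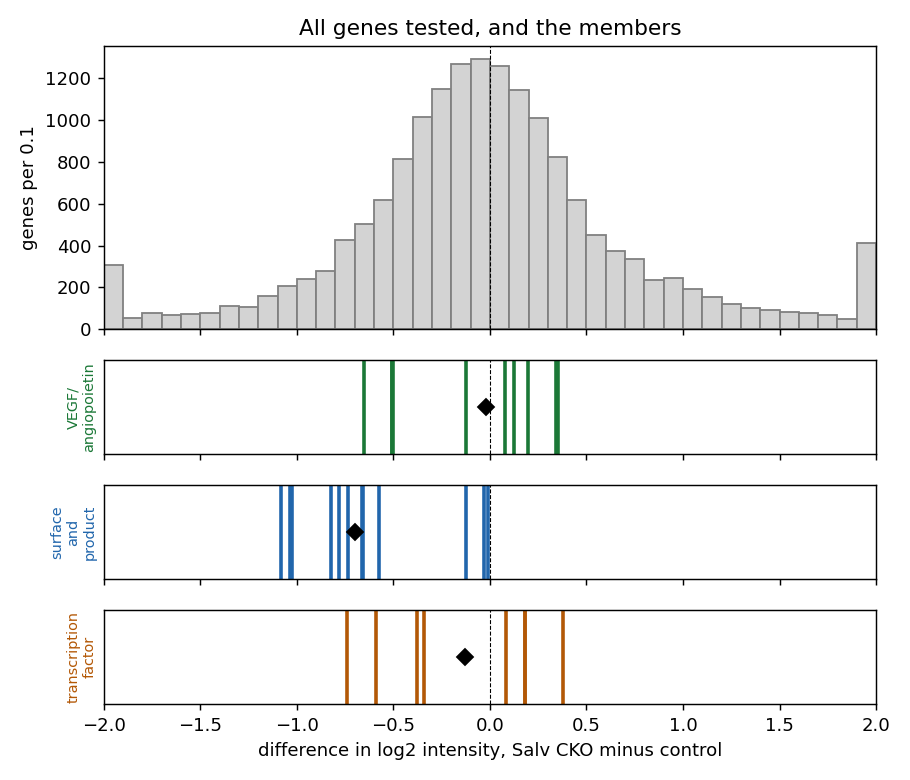
The histogram shows the difference in log2 intensity, Salv CKO minus control, of all 16675 genes (values beyond 2 in either direction are in the outermost bars); lines below it mark single genes of the 3 roles and diamonds their medians. The median is -0.70 for the 12 surface and product genes, -0.02 for the 10 signalling genes and -0.13 for the 8 transcription factors, against -0.04 for all genes. Without Erg, which lies below background, the median of the other 7 transcription factors is -0.34.

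Other genes around these pathways were described from 3 further lists, whose counts stand beside the 5.70% lower and 4.92% higher over all genes (7.58% and 6.45% above background). Of 23 further VEGF and angiopoietin pathway genes 3 fell and 0 rose (median -0.23); no difference from all genes was tested. The 3 were the kinase Akt1 (-1.03 ± 0.16), the calcineurin regulator Rcan1, which VEGF induces in endothelium (-0.75 ± 0.07), and the PI3 kinase subunit Pik3r1 (-0.54 ± 0.08). Of 17 Notch and ALK1 pathway genes that act in endothelium 4 fell and 0 rose (median -0.34), led by the arterial Notch ligand Dll4 (-0.82 ± 0.12), the TGF-beta receptor Tgfbr2 (-0.76 ± 0.11) and the inhibitory Smad6 (-0.60 ± 0.10). As the mean over all of their probes, Dll4 was at -0.53 (adjusted p = 0.112) and Tgfbr2 at -0.59 (adjusted p = 0.721), with no call.

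Of 26 other endothelial and endocardial genes 4 fell and 1 rose (median -0.32). Only 20 of the 26 were above background on all arrays. Another 4, Calcrl, Procr, Apln and Nr2f2, were below it on every array, and the median keeps them. Among those called lower, the scavenger receptor Stab1 (-1.09 ± 0.12), VE-cadherin (Cdh5), the junction protein by which endothelial cells hold together (-0.77 ± 0.09), and the arterial connexin Gja4 (-0.63 ± 0.08) were the furthest down. The tight junction protein Cldn5 went the other way (0.86 ± 0.12, adjusted p = 0.0191). With the values as deposited Cldn5 was at 0.40 with no call (adjusted p = 0.204).

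Markers of other cells in the same pools moved too. Of 14 heart muscle genes 6 fell and 0 rose (median -0.63), with Nkx2-5 (-1.61), Ttn (-1.41) and Pln (-1.36) the furthest down of those called. As the mean over its probes Ttn was not called (-1.05 ± 0.35, adjusted p = 0.158). Summed intensity was 421234 and 465064 in the controls and 381047 and 390901 in Salv CKO, but 5 of the 14 genes (Actc1, Myh6, Myl2, Myl3 and Myl4) were within 1% of the highest value of at least 1 array, the top of its scale, where a change cannot be read. The count and median above keep these 5 genes, and Myh6 (-0.67) is among those called lower. Without the 5 genes the sums were 125823 and 157935 against 103087 and 108726. Of 8 primitive red cell genes 3 fell, Hbb-y, Alas2 and Slc4a1, and 0 rose (median -0.50), with sums of 138215 and 139649 against 114137 and 113840, or 74933 and 77852 against 52957 and 50567 without Hba-x, which was at the top of the scale. Hbb-y lost its call with the replicate number as a block (adjusted p = 0.0514). None of the 30 endothelial genes was at the top of the scale. Of 11 platelet and macrophage genes 2 fell, Cxcl4 (platelet factor 4) and Itga2b, and 0 rose (median -0.61), with sums of 2369 and 3017 against 1523 and 1450, and Ptprc, Emr1 and Aif1 were below background on all arrays. Vwf is made by platelets as well, and Tal1, Lmo2, Fli1, Cd34 and Pecam1 are also expressed in blood cells.

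Of 13 neural and neural crest genes 8 rose and 0 fell (median 2.57). Neurog2 (4.40) and Sox2 (3.71) were furthest up among those above background on all arrays, while Zic1 was above background on 1 of the 2 control arrays and on both Salv CKO arrays. Their summed intensity was 2775 and 3006 in the controls and 13206 and 12689 in Salv CKO, and Foxd3 was below background on all arrays. Of 11 genes listed for cushion mesenchyme 6 rose and 1 fell (median 0.70), with Postn (2.87), Snai2 (1.30) and Pdgfra (0.86) the furthest up and Vcan down (-0.76). Which cells of the pools made these 11 RNAs was not tested, so the counts do not give an amount of cushion tissue. With the values as deposited Pdgfra was at 0.37 with no call (adjusted p = 0.0835). Their sums were 22885 and 22720 against 33236 and 31240. Of 6 epicardial genes 2 rose, Aldh1a2 (1.61) and Upk3b (0.58), and 0 fell (median 1.10), with sums of 1241 and 1196 against 2183 and 2435. Only these 2 were above background on all arrays. Tbx18 was above it on 1 array (-0.80), and Wt1, Tcf21 and Upk1b were below it on all arrays. Upk3b lost its call with the mean over probes (0.22, adjusted p = 0.289), with median centring (0.37, adjusted p = 0.103) and with the values as deposited (0.10, adjusted p = 0.702). The sums over the 30 endothelial genes were 64541 and 63174 in the controls and 49286 and 48801 in Salv CKO. The brightest probes, those of the ligands Vegfb and Vegfa, add most to them. Vegfb is abundant in heart muscle, so these sums do not give an amount of endothelium. The 12 surface and product genes alone gave 33192 and 33436 in the controls and 22376 and 22911 in Salv CKO. The part of these other cells in the endothelial differences was not tested.

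The size of every difference depended on how the arrays were scaled. The median over genes above background was -0.04 after quantile normalisation, -0.17 with median centring, -0.03 with 75th percentile scaling and -0.44 in the values as deposited, and the median over the 30 genes was -0.44, -0.60, -0.46 and -0.87. Relative to the median of genes above background the 30 genes were at -0.40 after quantile normalisation and at -0.43 under each of the others, which shift an array as a whole. On the same relative scale the surface and product genes were at -0.66 and -0.74, the signalling genes at 0.02 and 0.00, and Vegfc at 0.38 and 0.27. Of all calls 46.3% were higher after quantile normalisation, 22.8% with median centring and 6.88% in the values as deposited. Of the 30 genes, 10 were called lower in the first, 13 in the second, 11 with 75th percentile scaling and 17 in the values as deposited. The same 10 were among them each time. Of all genes 5.70%, 11.0%, 7.23% and 18.6% were called lower, in the same order.

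**Figure D5:**
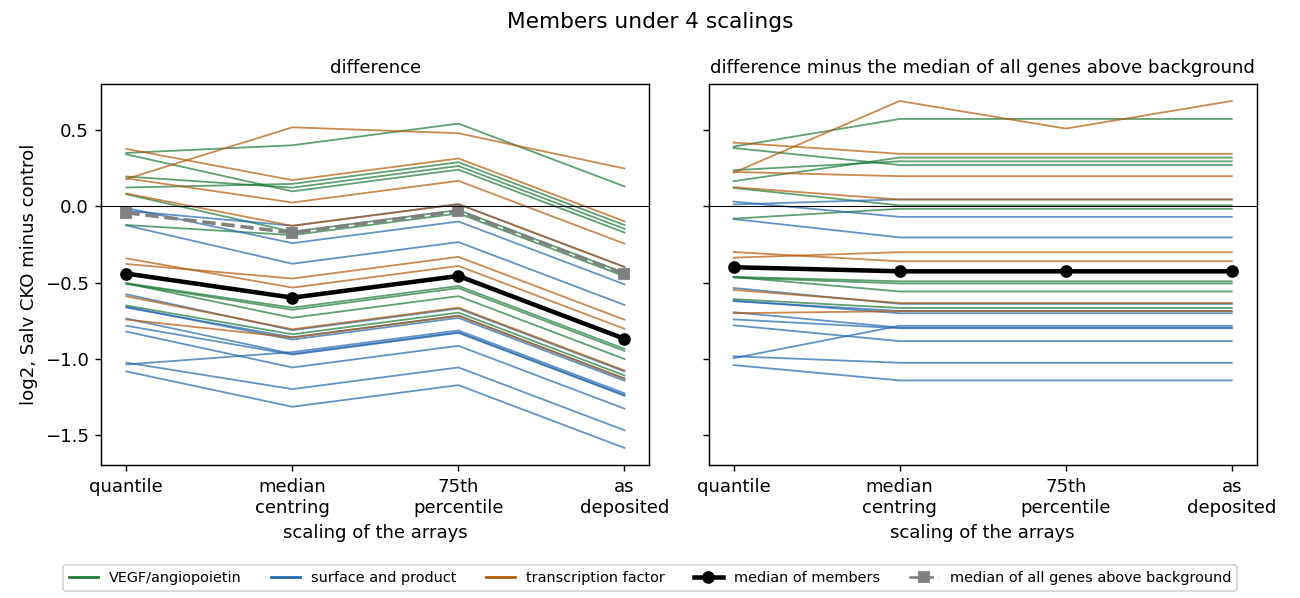
Differences in log2 intensity, Salv CKO minus control, of the 30 genes under 4 scalings of the arrays, as such (left) and minus the median of genes above background (right); the thick line is the median of the 30 genes. The thick line goes down to -0.87 in the values as deposited on the left and stays between -0.43 and -0.40 on the right.

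Promoters are shown for the called genes with 1 promoter in the RefSeq table (GRCm38.p6), which are Eng, Tie1, Vegfb and Vegfc, and for Cd34, the gene with the smallest difference. Of the 33 genes 16 had a promoter there, 23 promoters in all. The other called genes, Vwf, Plvap, Nos3, Pecam1, Icam2, Ramp2 and Mmrn2, had none there. Each line gives the 250 bases before the start of transcription, 5′ to 3′ on the gene's strand, at chr2:32646345-32646594 (plus strand) for Eng, chr4:118489850-118490099 (minus) for Tie1, chr1:194938571-194938820 (plus) for Cd34, chr19:6987652-6987901 (minus) for Vegfb and chr8:54077282-54077531 (plus) for Vegfc. Capitals mark AGGAAG or its reverse complement CTTCCT, the core of sites bound by Ets factors such as Fli1 and Erg.
Eng: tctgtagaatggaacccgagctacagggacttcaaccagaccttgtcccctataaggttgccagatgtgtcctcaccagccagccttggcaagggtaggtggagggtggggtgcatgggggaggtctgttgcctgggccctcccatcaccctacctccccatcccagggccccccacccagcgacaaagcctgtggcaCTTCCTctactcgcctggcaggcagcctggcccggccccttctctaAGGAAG
Tie1: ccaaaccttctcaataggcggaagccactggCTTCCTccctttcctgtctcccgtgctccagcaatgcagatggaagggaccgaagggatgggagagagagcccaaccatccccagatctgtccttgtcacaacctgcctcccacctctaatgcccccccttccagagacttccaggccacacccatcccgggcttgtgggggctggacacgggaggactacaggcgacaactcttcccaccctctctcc
Cd34: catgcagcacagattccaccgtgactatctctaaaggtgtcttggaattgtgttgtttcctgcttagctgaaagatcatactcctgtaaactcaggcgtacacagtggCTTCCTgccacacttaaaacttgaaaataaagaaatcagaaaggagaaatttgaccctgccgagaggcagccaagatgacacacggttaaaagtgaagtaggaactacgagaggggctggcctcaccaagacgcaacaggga
Vegfb: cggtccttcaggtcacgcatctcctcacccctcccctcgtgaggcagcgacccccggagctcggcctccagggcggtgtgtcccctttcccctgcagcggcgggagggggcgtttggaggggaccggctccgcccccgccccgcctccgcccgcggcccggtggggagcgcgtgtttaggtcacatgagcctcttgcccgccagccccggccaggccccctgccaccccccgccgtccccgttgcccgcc
Vegfc: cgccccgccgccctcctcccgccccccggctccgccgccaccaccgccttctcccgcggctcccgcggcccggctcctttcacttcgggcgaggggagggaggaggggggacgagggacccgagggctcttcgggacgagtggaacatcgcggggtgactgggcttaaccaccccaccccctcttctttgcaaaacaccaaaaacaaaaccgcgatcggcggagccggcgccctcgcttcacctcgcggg
The letters occur in these 250 bases 2 times in Eng, first 52 bases and last 6 bases before the start, and 1 time each in Tie1 (219 bases before) and in Cd34 (142 bases before), whereas those of Vegfb and Vegfc hold no match. Eng, which fell, and Cd34, which did not pass the test, thus both carry it.

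Over windows from 250 bases before to 50 after the start, on both strands, 10 of the 23 promoters (43.5%) hold AGGAAG, against 35.4% of the 32851 promoters in the table. A GATA-type motif, AGATAA, is in 4 of 23 (17.4%, against 11.2%), a motif of the Tead factors that bind Yap, GGAATG, in 4 of 23 (17.4%, against 14.7%) and a Sox-type motif, ACAATG, in 1 of 23 (4.35%, against 12.6%). No 2 of the 4 motifs are the same letters or reverse complements of each other. Several genes, among them Egfl7 and Erg, have more than 1 of the 23 promoters. Of the called genes the 23 promoters cover only Eng, Tie1, Vegfb and Vegfc. They also cover Erg, which was below background, and Emcn, which had no probe. A match is a description of the letters in this window only.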

How the data were processed

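Per the labels, RNA of pooled whole hearts was amplified with amino-allyl nucleotides and coupled to Cy5. The deposited values of the authors are, from the values themselves, background-subtracted intensity values on a linear scale, as values below 0 show; their scanner, software and scaling are not stated. Groups came from the sample titles, and p-values measure the spread between pools described as biological replicates.

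Quantile normalisation was done over the 4 arrays (R 4.3.3, limma 3.58.1), and values were floored at 1 and put on the log2 scale. Gene names came from the array's annotation (2013), with 1 symbol for 21020 of 29922 probes and either none or several for 8902. The probe with the highest mean was used per gene, without comparing levels between genes. Limma (lmFit, eBayes with an intensity trend) was fitted over all 16675 genes. It was also run on data simulated from its own fitted spread, which meet its assumptions and so do not check the calls made here. No value has a depth; the number of arrays limits the precision.

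Members and lists were chosen with earlier results of these data known. The rule for named genes gave values per array for each member past the threshold and each VEGF and angiopoietin gene above background on all arrays, and named from other lists up to 3 called genes per direction with the largest difference. Alternatives changed the scaling, floor, filter, trend, probe rule and arrays, and added a replicate block. Sequences are from RefSeq (GRCm38.p6).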

Additional observations from a re-analysis of the deposited data

How the results depend on the processing

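With 2 arrays a group, precision is limited by their number, and Flt1, Angpt2, Gpr116 and Erg also by signal near background. The main run called 10 of 30 genes lower and 1 higher (951 and 821 of all 16675 genes). Median centring gave 13 and 0 (1835 and 543 of all, median of the 30 genes -0.60). Scaling to the 75th percentile gave 11 and 0 (1205 and 824 of all). The values as deposited gave 17 and 0 (3101 and 229 of all, median -0.87). A floor of 16 gave 3 and 1 (228 and 253 of all, median -0.37), and a higher floor 3 and 1 (234 and 257 of all, median -0.36). The genes above background alone gave 11 and 1 (1437 and 1239 of 12402, or 11.6% and 9.99%). The mean over probes gave 10 and 0 (666 and 558 of all). Limma without the intensity trend gave 0 and 0, also over all genes (12 and 1 of the 30 at an unadjusted p under 0.05, and 1897 and 1681 of all). A raised floor gives dim genes identical values; the cause of the other changes was not tested. With 1 array left out limma called 0 to 0 genes in each count (1633 to 1926 lower and 1378 to 1717 higher unadjusted) with 1 residual degree of freedom, the lone array being assumed to vary like the other group, and the median of the 30 genes ranged from -0.52 to -0.31. The replicate number as a block gave 12 and 1, adding Kdr and Tal1 and, among the other genes named, losing Hbb-y (1195 and 1016 of all genes); same-numbered arrays deviated together with r = 0.15 over probes above background, and the 2 pairs share only a number. Adding the genes found under an older symbol, an alternative chosen after seeing the data, left 10 and 1.

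Signs turned, with no call, for Vegfa (-0.17) and Lmo2 (-0.13) with median centring, for Vegfa (-0.024) and Robo4 (0.015) with 75th percentile scaling, for Robo4 with the mean over probes (0.30), and in the values as deposited for Vegfa (-0.44), Vegfc (-0.17), Flt1 (-0.12), Flt4 (-0.15), Sox17 (-0.24), Fli1 (-0.10) and Lmo2 (-0.40). With 1 array left out they turned for Flt1 (-0.072 to 0.32), Flt4 (-0.14 to 0.53), Angpt1 (-0.45 to 0.20), Angpt2 (-0.049 to 0.75), Erg (-1.59 to 1.95), Lmo2 (-0.026 to 0.19), Robo4 (-0.19 to 0.13) and Cd34 (-0.058 to 0.037), none of them called in any of these fits.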
